A study of Rattus norvegicus with 4 samples.

Results

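The group of glucocorticoid receptor (GR) binding sites with the most reads in the rat hippocampus lay on chromosome 8 from 51994001 to 52026900 (rat build rn4), in the interval from 51.9 to 52.2 Mb that is expected to hold the gene Zbtb16. The group was chosen on the GR reads at 3000 µg/kg corticosterone, as the one of most reads. It held 7 of the 10 regions in which GR reads exceeded background in the interval at that dose, out of 6255 such regions in the genome. The interval was not checked against an rn4 annotation, so the sites are given by coordinates, and whether any of them lies in an exon, an intron or a UTR was not determined. In the RefSeq gene table of GRCr8, another rat build, Zbtb16 stands between Nnmt and Htr3a in the order of named protein-coding genes on chromosome 8.

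GR is a nuclear receptor that moves to the nucleus and binds DNA when a glucocorticoid occupies it. Its binding sites often lie far from the start of the genes they serve, and several can lie near 1 gene. Zbtb16 encodes PLZF, a zinc-finger protein with a BTB domain that represses transcription, and the gene is a widely used marker of the transcriptional response to glucocorticoids. No expression was measured in these samples.

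All animals were male Sprague-Dawley rats, 8 weeks old and adrenalectomized, an operation that removes the source of their own corticosterone. They were killed 1 hour after an intraperitoneal injection of corticosterone, as a complex with hydroxypropyl-cyclodextrin, given 3 days after the operation. The groups were GR at 300 µg/kg, IgG at 300 µg/kg, GR at 3000 µg/kg and IgG at 3000 µg/kg, with 1 library each, where GR stands for chromatin immunoprecipitated with the H-300 antibody and IgG for normal rabbit IgG as the background control. Chromatin of 6 hippocampal hemispheres of a dose was pooled, and the pool was then divided between the antibodies, so a library stands for a pool of animals and of all hippocampal cell types. With 1 library per group no difference had a replicate check, and each test below sets the reads of 1 library against those of another, which says nothing of the spread between animals or between immunoprecipitations. Between 458480 and 461308 reads per library lay on chromosomes 1 to 20 and X, a mean of 0.169 reads per kb in each of the 4 libraries. Intervals are exact 95% intervals (Clopper-Pearson, from the binomial distribution, unless another is named). They cover counting error only and are too narrow where both ends of 1 amplified fragment were counted.

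Regions were called where a window of 300 bases held more GR reads than expected from the IgG library of the same dose (Poisson p of at most 1e-05, at least 4 reads). At 3000 µg/kg 0.0567% of all windows of the genome were called, and at 300 µg/kg 0.011%. In the interval 10 regions were called at the higher dose and 5 at the lower, and each of the latter overlapped 1 of the former. Called regions are referred to as sites below, and each is named by the distance of its centre, the median position of its GR reads at 3000 µg/kg, from that of the strongest site. The counts at 3000 µg/kg are those that chose the group and are given as a description. The libraries at 300 µg/kg took no part in choosing the sites.

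**Figure D1:**
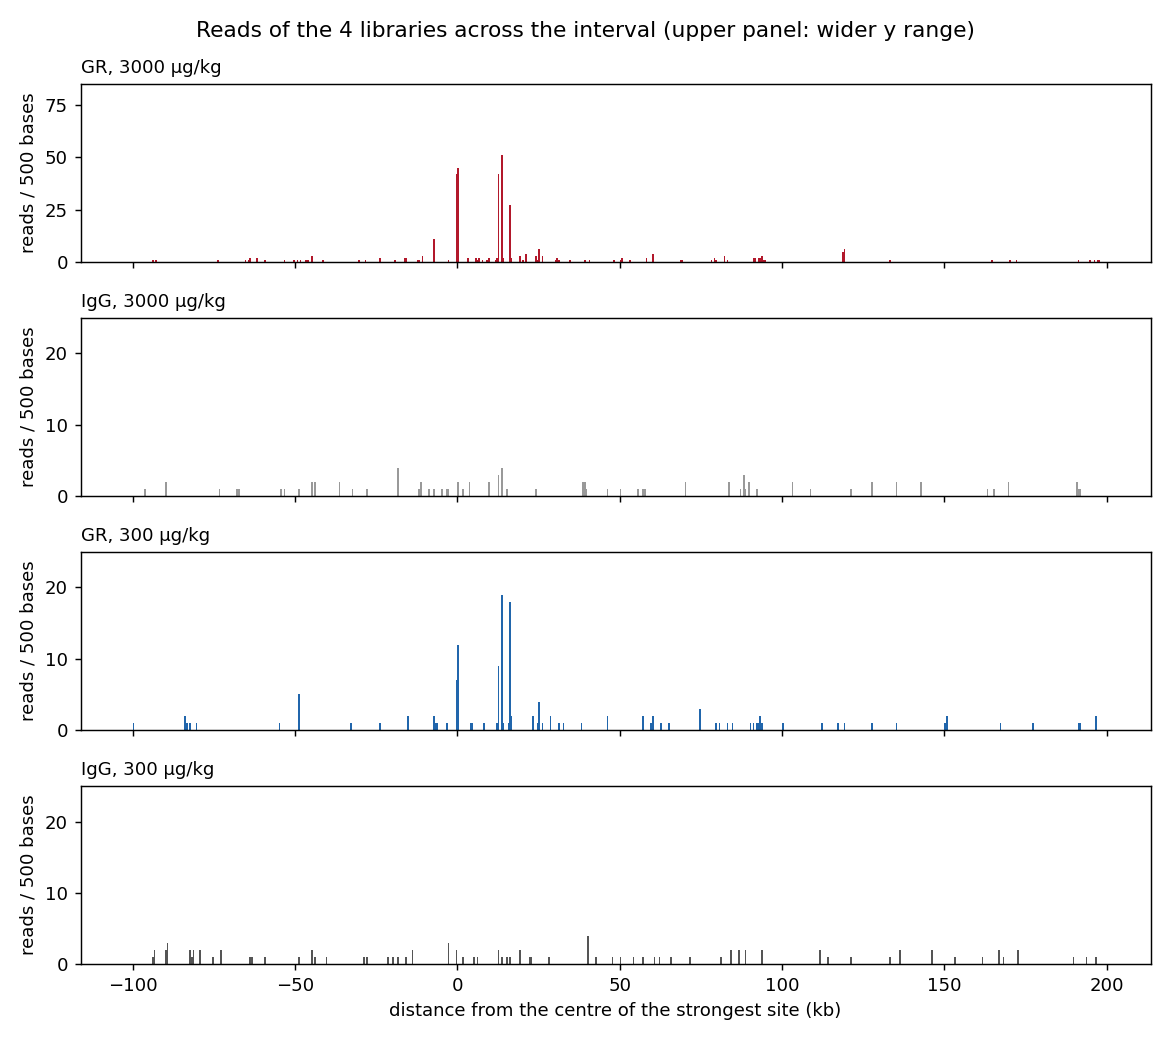
Reads of each library in steps of 500 bases (y axis; the range of the upper panel is wider) against the distance from the centre of the strongest site in kb (x axis). The 5 highest steps of both GR libraries are centred between -0.25 and 16.25 kb, at the 4 strong sites, and no step of the IgG libraries holds more than 4 reads.

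Of the 7 sites of the group 4 were strong, with 20 or more GR reads at 3000 µg/kg. The strongest, at 52001001-52001800, held 85 GR and 2 IgG reads at 3000 µg/kg, and 19 GR and 2 IgG reads at 300 µg/kg. It had the highest GR count of all 6255 regions at 3000 µg/kg and stood at rank 10 among these regions at 300 µg/kg, where the highest count was 28 reads. The site 12.7 kb above it, at 52013801-52014500, held 43 GR and 3 IgG reads at 3000 µg/kg, and 9 GR and 2 IgG reads at 300 µg/kg. Both sites thus held more GR than IgG reads at either dose, and the margin was smallest, 9 against 2, at the second site at the lower dose.

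The next site, at 13.9 kb (52014901-52015500), lay 1127 bases from the centre of the previous one. It held 51 GR and 4 IgG reads at 3000 µg/kg, and 20 GR and 1 IgG read at 300 µg/kg. The last strong site, at 16.4 kb (52017501-52018100), held 29 GR and 0 IgG reads at 3000 µg/kg, and 20 GR and 1 IgG read at 300 µg/kg. Its 0 IgG reads allow up to 3 (a one-sided 95% limit; the two-sided exact Poisson interval of a count of 0 reaches 3.69). At 300 µg/kg these 2 sites thus held 1 read more than the strongest site, well within counting error, although they held 34 and 56 fewer at 3000 µg/kg.

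The other 3 sites of the group were weak. That 7.14 kb below the strongest site, at 51994001-51994500, held 11 GR and 1 IgG read at 3000 µg/kg, and 3 GR and 0 IgG reads at 300 µg/kg. The site at 25.3 kb (52026401-52026900) held 6 GR reads at the higher and 4 at the lower dose, with 0 IgG reads at either. The site at 21.2 kb (52022401-52022700) held 4 GR reads at 3000 µg/kg and no read in the other 3 libraries (exact Poisson p = 2.69e-07). It thus held the minimum of reads for a call and was not called at a threshold of 1e-07. In sum the weak sites held 7 GR reads at 300 µg/kg against 0 in the IgG library, which allows up to 3.

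**Figure D2:**
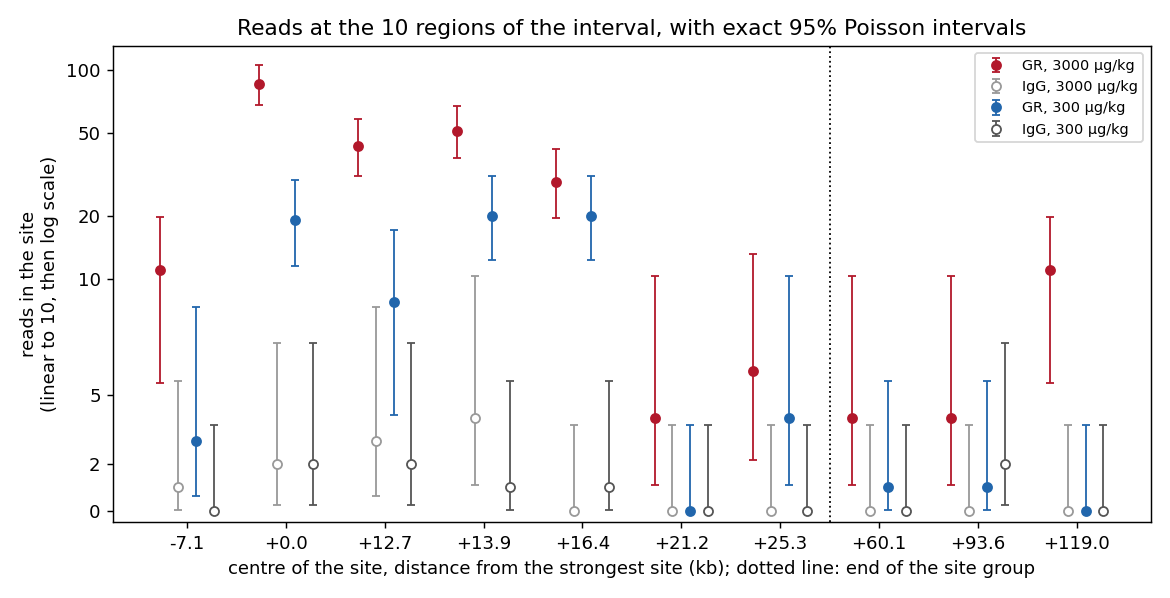
Reads of the 4 libraries (y axis, linear up to 10 and logarithmic above) at the 10 regions of the interval, placed in genome order by their distance from the strongest site (x axis). Points are counts, bars exact 95% Poisson intervals. GR counts at 3000 µg/kg range from 29 to 85 at the 4 strong sites and from 4 to 11 at the others.

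GR reads of 300 µg/kg were compared with IgG reads of the same dose in each region chosen at 3000 µg/kg. The sites at 13.9 and 16.4 kb held more GR reads in this test, each with 20 against 1, which is a ratio of 19.97 with an interval of 3.19 to 828 (exact two-sided binomial test, adjusted p = 0.0101 by Benjamini-Hochberg over 6255 regions). The strongest site, with a ratio of 9.49 (2.29 to 84.0), fell just short of the threshold of 0.05 (adjusted p = 0.0509, exact binomial). At the site at 12.7 kb the ratio was 4.49, and its interval of 0.930 to 42.7 included 1. Over all 6255 regions 0.416% were called in this test, and of the 225 regions with 20 or more GR reads outside the interval 9.78%. The strongest site was called under 7 of the 10 alternative settings that recomputed the test, which include the setting that left it out. These 7 were a p threshold of 1e-07 or at least 8 reads for regions, wider windows (600 bases), both IgG libraries in sum, IgG at 3000 in place of 300 µg/kg, reads not shifted and counts within 200 bases of the best window. With IgG reads at 3000 µg/kg the site at 13.9 kb was not called, so that 3 sites of the group were called under 6 of these settings. At the p threshold of 1e-07 and with at least 8 reads the counts of the strongest site were unchanged. The adjustment then ran over 3422 and 1681 regions in place of 6255. The 2 calls in the group were lost when both ends of a fragment were merged and counted once (lowest adjusted p in the group 0.543, exact binomial) and when plus-strand reads alone were counted (0.241). Both settings also left 0 calls in the whole genome, and 3 sites of the group had an unadjusted p of at most 0.05 in each of them, as on all reads.

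The call of regions at 300 µg/kg used the IgG library differently, for an expected count of each window that could not fall below the genome mean of the GR library. By this rule 5 of the 7 sites overlapped a region called at 300 µg/kg, namely the 4 strong sites and that at 25.3 kb. Of all 6255 regions 7.75% did so, and of the 225 with 20 or more GR reads outside the interval 53.8%. The sites at 13.9 and 16.4 kb stood at ranks 14 and 15 by p among the 1510 regions called at 300 µg/kg, and the strongest site at rank 25. The sites at 12.7 and 25.3 kb, at ranks 1304 and 1260, were near the threshold, with exact Poisson p of 3.32e-06 and 2.56e-06, and were not called at a threshold of 1e-07.

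Summed over the 7 sites the libraries held 229 GR and 10 IgG reads at 3000 µg/kg, and 75 GR and 6 IgG reads at 300 µg/kg. At equal library size GR exceeded IgG 12.5-fold (5.47 to 35.1) at the lower dose, and 7.50-fold (3.86 to 16.3) when set against the IgG library of the other dose. At the higher dose, whose reads chose the sites, it did so 22.8-fold (12.2 to 48.2). For comparison, the ratio at 300 µg/kg was 15.2 (12.4 to 18.9) over the 225 regions of 20 or more GR reads outside the interval and 11.3 (4.94 to 31.9) over the 4 strong sites of the group. The interval of the group took in the value of these other regions, so a difference was not detectable at this depth. Without the strongest site the ratio at 300 µg/kg was 14.0 (5.17 to 53.1).

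The ratio of GR reads between the doses ranged from 1.44 to 4.76 over the 4 strong sites. GR reads at 3000 µg/kg stood to those at 300 µg/kg as 4.45 (2.68 to 7.76) at the strongest site, 4.76 (2.29 to 11.1) at 12.7 kb, 2.54 (1.49 to 4.49) at 13.9 kb and 1.44 (0.789 to 2.69) at 16.4 kb. On all reads the intervals of the strongest site and of the site at 16.4 kb overlapped only at their edges, and that of the latter included 1. On merged fragments the overlap was wider, with ratios of 4.09 (2.09 to 8.74) and 1.28 (0.566 to 2.96). It was wider still on plus-strand reads alone, with 3.63 (1.83 to 7.83) and 1.44 (0.570 to 3.82). The sites at 12.7 and 13.9 kb, neighbours along the chromosome, had similar GR counts at 3000 µg/kg, 43 and 51, but 9 and 20 reads at 300 µg/kg. These ratios are a description, since the same GR reads at 3000 µg/kg chose the sites, and the differences between them were not tested. With 1 library per group, dose also cannot be told apart from any difference in library preparation, here and in the sums below. The labels describe amplification only for the libraries at 3000 µg/kg.

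Among all 229 regions with 20 or more GR reads at 3000 µg/kg the site at 16.4 kb had the lowest ratio of doses. The next lowest, on chromosome 20 at 6757501-6758000, had a ratio of 1.49 with 21 and 14 reads. The median region of this class had a ratio of 4.98, with quartiles of 2.99 and 10.5, and 14 of the 229 held no GR read at 300 µg/kg. The site at 13.9 kb stood at rank 38 from the lowest ratio, the strongest site at rank 96 and the site at 12.7 kb at rank 107. Merging reads into fragments by distance kept the site at 16.4 kb at rank 1 with a ratio of 1.28 (0.566 to 2.96). Subtracting IgG reads placed it at rank 3 with a ratio of 1.52.

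**Figure D3:**
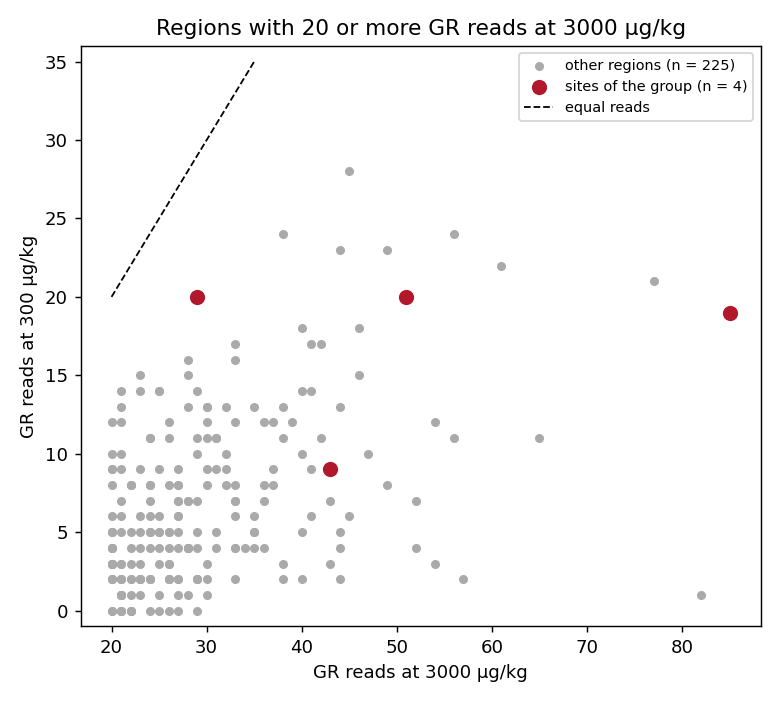
GR reads at 300 µg/kg (y axis) against GR reads at 3000 µg/kg (x axis) for the 229 regions with 20 or more reads at the higher dose. The dashed line marks equal reads. The 4 sites of the group, in red, span 29 to 85 reads on the x axis and 9 to 20 on the y axis, and that with 29 and 20 reads is nearest in ratio to the line of equal reads.

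Summed over the 7 sites of the group GR reads were 3.04 times as many at 3000 as at 300 µg/kg (2.33 to 4.00). The 10 against 6 IgG reads gave a ratio of 1.66, with an interval of 0.548 to 5.57 that included 1. On merged fragments counted in the same 7 sites the ratio of GR between the doses was 2.63 (1.87 to 3.75). On all reads without the strongest site it was 2.56 (1.87 to 3.55). The 4 strong sites alone gave 3.04 (2.30 to 4.06). The 225 regions outside the interval with 20 or more GR reads, the same minimum, gave 4.41 (4.17 to 4.67) in sum. The interval of the 4 strong sites lay below theirs, but both intervals leave out the spread between regions. Taken singly, the 225 regions had quartiles of 2.99 and 10.5, and the value of the 4 strong sites lay between these. By its ratio of doses the whole group stood at rank 9 from the lowest among the 40 site groups with 50 or more GR reads at 3000 µg/kg. The group and the 225 regions were both chosen on reads at 3000 µg/kg, by different rules. Such a choice can raise a ratio of doses, and its part in either ratio was not measured. A test of the difference between the 2 ratios was not made.

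Reads that repeated a position and strand were absent from all 4 libraries, so a site could gain no more than 1 read per position and strand. In the densest 100 bases of 1 strand, GR reads at 3000 µg/kg took 21 positions at the strongest site, 15 at 12.7 kb, 22 at 13.9 kb and 9 at 16.4 kb. Such a limit falls most on the densest counts, and its part in the ratios of doses was not tested.

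At the strong sites plus-strand reads lay to the left of minus-strand reads. The median 5' end of minus-strand reads lay 117.5 bases above that of plus-strand reads at the strongest site at 3000 µg/kg, 81 bases above it at 12.7 kb, 98.5 at 13.9 kb and 90.5 at 16.4 kb. Reads from both ends of short fragments leave such an offset at a bound position, but also elsewhere. Plus- and minus-strand reads with 5' ends 50 to 140 bases apart took in 30.5% of all GR reads and 52.8% of all IgG reads of the higher dose, so the offset by itself does not mark the sites. The middle 50% of GR reads at 3000 µg/kg, moved 75 bases downstream, spanned 122 bases at the strongest site and 99.5 at 12.7 kb. At 13.9 and 16.4 kb they spanned 66.5 and 67 bases. At the offsets above, a move of 75 bases passes the middle between the strands, so the spans depend in part on the move. With 40 plus-strand and 45 minus-strand reads, the strongest site was the broadest of the 4 strong sites by this measure.

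The centres of the sites, which the choice of the group at 3000 µg/kg did not fix at 300 µg/kg beyond the extent of each region, were close to each other between the doses. They lay 13 bases apart at the strongest site, 18 at 12.7 kb, 27 at 13.9 kb and 5 at 16.4 kb. Among the weak sites the distance was 33 bases at that below the strongest site and 27 at 25.3 kb. These 6 distances, over the sites of the group with GR reads at both doses, were small against the width of the sites, 500 to 800 bases.

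**Figure D4:**
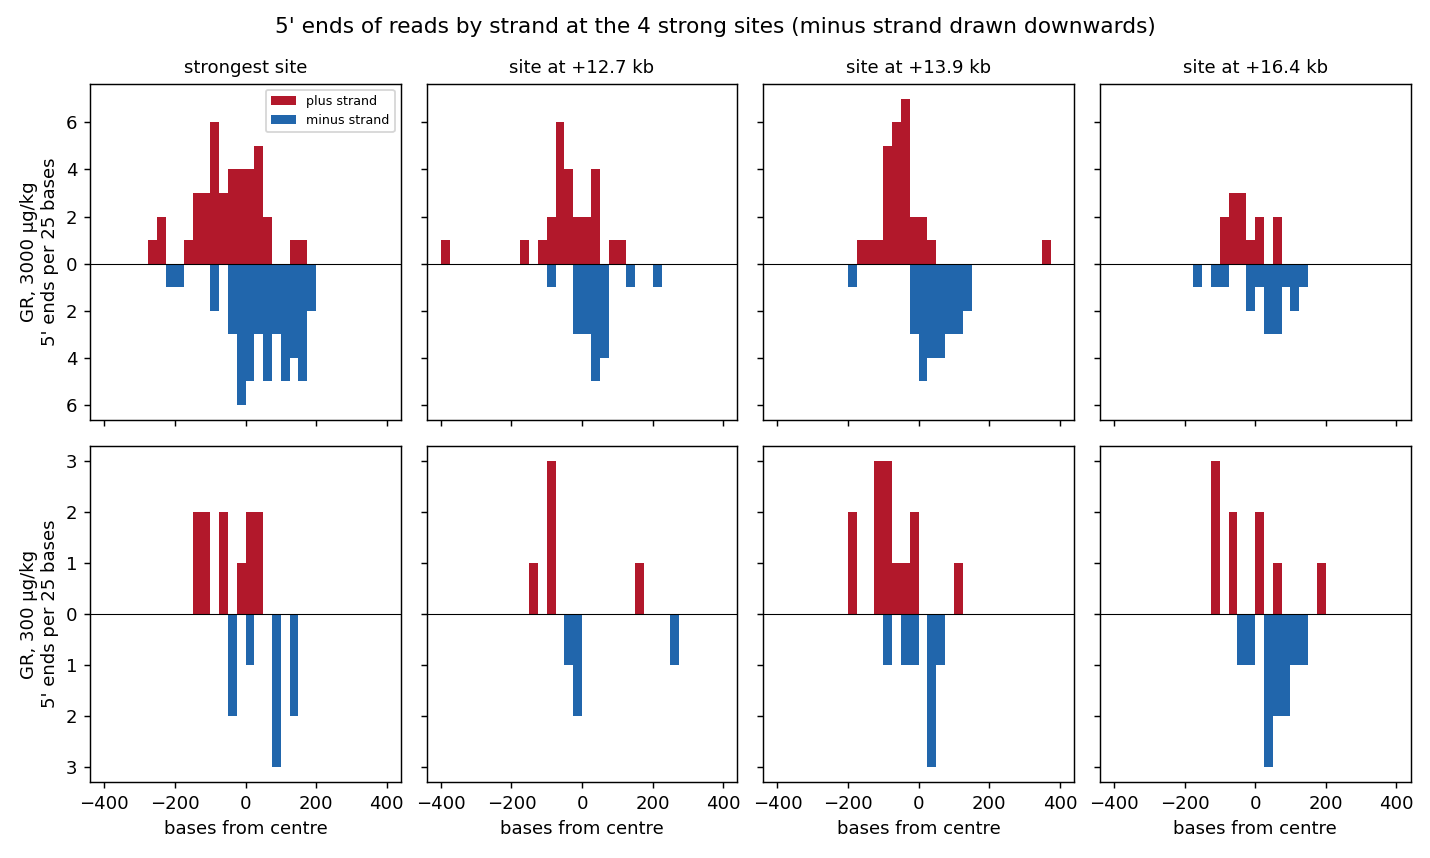
Number of 5' ends of GR reads per 25 bases (y axis; plus strand upwards, minus strand downwards) against the distance in bases from the centre of each of the 4 strong sites (x axis), at 3000 µg/kg (upper row) and 300 µg/kg (lower row). Plus-strand ends lie to the left of minus-strand ends, by 81 to 117.5 bases between the medians at 3000 µg/kg.

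Outside the group the interval held 3 further regions at 3000 µg/kg and none called at 300 µg/kg. That at 119 kb (52120101-52120700) held 11 GR reads at 3000 µg/kg and 0 reads in each of the other 3 libraries. The weak site below the strongest one also held 11 GR reads at 3000 µg/kg, but 3 at 300 µg/kg. Just inside the threshold were the region at 60.1 kb (52061401-52061700; exact Poisson p = 2.59e-06) with 4 GR reads at the higher and 1 at the lower dose, and that at 93.6 kb (52094801-52095100; exact Poisson p = 7.99e-06) with 4 and 1. The latter also held 2 IgG reads at 300 µg/kg, more than GR reads of that dose. The regions at 60.1 and 93.6 kb were not called on merged fragments, with at least 8 reads or at a p of 1e-07.

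Just outside the threshold at 3000 µg/kg were 3 windows, all at the edge of a called site. They began at 52017401 with 5 GR reads (exact Poisson p = 1.61e-05), at 52015301 with 8 (3.82e-05) and at 51993901 with 4 (0.00027). No other window of the interval with 4 or more GR reads at 3000 µg/kg went uncalled. At 300 µg/kg a window away from the sites, at 51952501-51952800, held 4 GR reads and 1 IgG read and was not called (exact Poisson p = 0.000267). The higher dose gave 0 GR reads and 1 IgG read there.

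Outside the called regions both flanks of the group in sum held no GR excess beyond counting error. The flanks of the group outside regions, 265.901 kb in all, held 80 GR and 65 IgG reads at 3000 µg/kg, a ratio of 1.23 (0.872 to 1.73). At 300 µg/kg they held 58 GR and 74 IgG reads, a ratio of 0.783 (0.545 to 1.12). The lower flank alone held 16 GR and 34 IgG reads at 300 µg/kg, fewer GR reads at a ratio of 0.470 (0.242 to 0.875). At the higher dose it held 35 GR and 25 IgG reads, a ratio of 1.39 (0.811 to 2.43). The upper flank with its 3 called regions held 64 GR and 40 IgG reads at 3000 µg/kg, a ratio of 1.59 (1.06 to 2.43), and without these regions 45 and 40, a ratio of 1.12 (0.715 to 1.76). The 28.9 kb between the sites of the group held 26 GR and 10 IgG reads at 3000 µg/kg, a ratio of 2.59 with an interval of 1.21 to 6.01. At 300 µg/kg the same stretches held 10 GR and 11 IgG reads, a ratio of 0.908 (0.346 to 2.35). A GR excess between the sites was thus seen at the higher dose and was not detectable at the lower, a difference that was not tested. The excess is a description, since the GR library at 3000 µg/kg also chose the group and set the edges of its sites. The part of reads next to these edges in the excess was not tested.

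The sites of the group covered 1.33% of the interval. They took 64.7% of its GR reads at 3000 µg/kg (59.5 to 69.7%), a share raised by their choice, and 51.7% at 300 µg/kg (43.3 to 60.1%). Of the IgG reads of the interval they took 11.8% (5.79 to 20.6%) at the higher dose and 6.45% (2.40 to 13.5%) at the lower. Both IgG shares were above the share of bases, so the sites also stood out in the control libraries.

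IgG reads at the sites were 14.8 times as dense as the genome mean at the higher dose and 8.89 times at the lower, against 337 and 111 times for GR. The flanks outside regions were above the genome mean as well, by 1.45 and 1.65 times in the IgG libraries and by 1.77 and 1.29 times in the GR libraries. Of 9052 stretches of the same length as the interval, 3.57% held as many IgG reads as the interval at the higher dose and 1.29% at the lower. The part of this denser background in the GR counts of the sites was not tested. With the GR and IgG libraries exchanged, no region of the interval was called at 3000 µg/kg. At 300 µg/kg 1 was called, at 51911801-51912100, with 4 IgG and 0 GR reads (exact Poisson p = 2.62e-07). The site of the group at 21.2 kb had the same number of GR reads at 3000 µg/kg and a similar exact Poisson p, 2.69e-07.

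The group was set beside other site groups, formed of regions at 3000 µg/kg with gaps of at most 20 kb between neighbours. Of 5308 such groups 4599 held a single region. The group on chromosome 8 held the most GR reads at both doses, 229 and 75, and its 7 regions equalled the highest number in any group, which 1 other group shared. Its regions numbered 6 at a p threshold of 1e-07 and 5 with at least 8 reads, settings under which the other groups were not counted. The group on chromosome 8 alone held 4 regions of 20 or more GR reads, and the highest number in any other group was 3. These ranks describe the values by which the group was chosen, except for that at 300 µg/kg.

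Next by GR reads at 3000 µg/kg came a group on chromosome 20 at 6752101-6763800 with 137 GR reads in 6 regions. Then followed 1 on chromosome 20 at 27259801-27280500 with 110 in 4 regions and 1 on chromosome 17 at 19197801-19231500 with 96 in 6 regions. Their GR reads at 300 µg/kg were 30, 42 and 12. The ratio of doses was 4.55 (3.04 to 6.99) and 2.61 (1.81 to 3.81) in the groups on chromosome 20 and 7.96 (4.35 to 15.9) in that on chromosome 17. The interval of the group on chromosome 17 lay above that of the group on chromosome 8, 2.33 to 4.00, whereas those of both groups on chromosome 20 overlapped it.

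Likeness of pattern was measured as the Euclidean distance between the shares that the 4 libraries took of the reads of a group, over the 40 groups with 50 or more GR reads at 3000 µg/kg. In the group on chromosome 8 the GR libraries of the higher and lower dose took 71.6% and 23.4% of reads, and the IgG libraries 3.13% and 1.88%. The nearest group lay on chromosome 3 at 156322801-156329800, with GR shares of 72.9% and 21.4% (distance 0.0269). The second lay on chromosome 1 at 77410101-77412600 (distance 0.0331) and the third on chromosome 2 at 180061801-180084300 (distance 0.0374). These 3 groups held 51 to 79 GR reads at 3000 µg/kg in 2 to 7 regions. That on chromosome 2 held as many regions as the group on chromosome 8, but none of 20 or more reads.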

How the data were processed

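The authors deposited aligned reads of 36 bases, 1 per line with a count of 1, and the unit used here is the read count; all libraries held 468802 reads, so they had been cut to 1 size beforehand, in a way that no source used here gives. Bedtools, MACS and the build rn4 appear in the submitters' processing notes, without versions. The labels' protocols describe amplification (18 rounds) only for the libraries at 3000 µg/kg. Read starts, shifted downstream by 75 bases, were counted in windows of 300 bases every 100 bases. The expected count was the largest of the genome mean and the IgG counts in 1, 5 and 10 kb around. Called windows that overlapped were merged. For fragments, a plus- and a minus-strand read with 5' ends 50 to 140 bases apart were merged into 1. This went by distance alone, so that reads of different fragments can be joined where reads are dense. The interval was chromosome 8 from 51900000 to 52200000, and the group was the chain of called regions, with gaps of at most 20 kb, around its region of lowest p. Region calling and intervals were tested on simulated reads. Python 3.11.15, numpy 2.4.6, scipy 1.17.1 and matplotlib 3.10.9 were used.

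GR and IgG reads at 300 µg/kg were compared by an exact binomial test in all regions of 3000 µg/kg. Named were all called regions of the interval, the windows nearest the threshold, the 3 other site groups of most GR reads and the 3 of most similar library shares. The members, lists and rules were chosen with earlier results of these data known. The alternatives were other p thresholds, windows, read minimums, shifts, IgG libraries, strands, extents and scalings, merged fragments and IgG subtraction. Where a library held 0 reads, 3 was used as the upper limit. RefSeq sequences of the sites were not used here, for want of the rn4 build.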

Additional observations from a re-analysis of the deposited data

How the results depend on the processing

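Under 12 alternative settings 113 of 124 recomputed values stayed near the reported value and 11 moved further. Near means within its counting interval or, for counts of regions and sites, within 1.5 times of it. No ratio reversed. By this rule counts could not, nor could ratios whose reported interval included 1. These were the GR to IgG ratios of the flanks at both doses and the ratio of doses at 16.4 kb. Pooled or exchanged IgG libraries could change the ratios of doses only through the extent of regions, and at the 4 strong sites they did not. The same held at a p of 1e-07 and with at least 8 reads. The setting that left out the strongest site was added after seeing the data. Regions called in the group at 3000 µg/kg numbered 7 as reported, 4 on plus-strand reads alone and 5 to 7 otherwise. Those outside the group numbered 3 as reported and fewer under each of the 8 settings that recalled them: 1 at a p of 1e-07, with at least 8 reads, on merged fragments and on plus-strand reads, and 2 otherwise. Those of the group at 300 µg/kg fell from 5 to 3 under the same 4 settings and to 4 with windows of 600 bases, pooled IgG libraries and the IgG library of the other dose. Sites of the group called for GR over IgG at the lower dose, adjusted (exact binomial), numbered 2 as reported, 0 on merged fragments and on plus-strand reads, which hold fewer counts, 3 under 6 settings and 2 under 2. The ratio of doses of the group ranged from 2.56 to 3.29 and its GR to IgG ratio at 300 µg/kg from 7.50 to 14.6. The order of the ratios of doses among the 4 strong sites rests on 9 to 20 GR reads each at 300 µg/kg. No paired analysis was possible because each group had 1 library and so no replicate numbers to match; a fit of antibody and dose over all 4 libraries was not made, since GR reads at 3000 µg/kg chose the sites.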
